A study of Kluyveromyces lactis with 6 samples.

Results

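The lactose and galactose regulon of the milk yeast Kluyveromyces lactis was followed through 6 of its genes, chosen by gene identifier: LAC4 (KLLA0B14883g), LAC12 (KLLA0B14861g), GAL1 (KLLA0F08393g), GAL10 (KLLA0F08415g), GAL7 (KLLA0F08437g) and LAC9 (KLLA0D12672g). They are 6 of 5076 genes with a value in the files, and all 6 passed the filter on low values and were tested. RNA was sequenced from 3 MATa strains that all lack the silent mating cassettes HML and HMR. These were a wild type with SIR2 intact (WT, LRY2835) and 2 isolates with SIR2 deleted (isolate 1, LRY2849, and isolate 2, LRY2850). Sir2 is a deacetylase of histones that uses NAD+ and helps to silence chromatin. Every strain grew at 30 °C on 1% yeast extract, 2% peptone and 2% glucose and was taken early in log phase. No lactose or galactose is named in the medium. Each strain gave 2 libraries, which the design text describes as technical, so WT is 1 strain and the deletion is 2.

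In K. lactis, lactose enters the cell through the permease Lac12 and is split by the beta-galactosidase Lac4 into glucose and galactose. Galactose then passes through the Leloir pathway: Gal1 phosphorylates it, Gal7 transfers it onto a uridine nucleotide, and Gal10 converts the product into its glucose form. Lac9, the counterpart of Gal4 of Saccharomyces cerevisiae, activates these genes. Gal80 holds Lac9 inactive until galactose is sensed, and in K. lactis Gal1 is itself the sensor that relieves Gal80. Glucose represses the regulon to a degree that differs between strains of the species.

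The reference table gives no gene the symbol SIR2, and KLLA0F14663g was read as that gene because it is known by this identifier in the species. Its level was 66.9 and 64.9 FPKM (read fragments normalised to gene length and to library size) in the WT libraries and between 0.0503 and 0.108 in the 4 deletion libraries, as labelled. The values used here are FPKM, so the number of reads behind them is unknown. FPKM summed over genes to between 1542502 and 1803539 in a library and was highest in isolate 2 replicate 2. The median change over all tested genes was −0.06 on the log2 scale for sir2Δ against WT and 0.01 for isolate 2 against isolate 1.

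Without SIR2, 5 of the 6 genes rose in these glucose cultures, and GAL7 did not pass the test. No culture lacked glucose, so whether glucose repressed these genes in WT was not tested. GAL10 and GAL1 rose most, by 7.44-fold and 6.35-fold, followed by LAC4 at 3.63-fold, LAC12 at 2.92-fold and the activator gene LAC9 at 1.52-fold. None of the 6 fell. Over all 5021 tested genes, 40.1% were called in either direction, 20.2% as higher and 19.9% as lower. Technical libraries were first reduced to a mean per strain, and limma then set the 2 isolates against the 1 WT strain on log2(FPKM + 1), with Benjamini-Hochberg adjustment over all tested genes and a two-sided threshold of 0.05. Folds are on that scale. limma shares an estimate of spread over all tested genes, so errors and intervals reflect the distance between the isolates only in part. WT is a single strain, so strain, culture and genotype cannot be told apart in any comparison with it. Transcript levels per cell and the share of cells that express a gene also cannot be told apart in these bulk samples.

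The lactose genes come first in the pathway. LAC4, the beta-galactosidase gene, was at 298 and 255 FPKM in WT, 798 and 959 in isolate 1, and 1106 and 1202 in isolate 2. All 4 deletion libraries lay above both WT libraries, and both libraries of isolate 2 lay above both of isolate 1. The change in sir2Δ against WT was 1.86 on the log2 scale (SE 0.19, 95% interval 1.42 to 2.30, limma adjusted p = 0.000214). LAC12, the permease gene, was at 292 and 214 FPKM in WT, 542 and 701 in isolate 1 and 953 and 788 in isolate 2. Its groups did not overlap either, but its technical libraries were the furthest apart of the 6 genes in WT and in isolate 2 (SD 55.2 and 117 FPKM). The log2 change was 1.55 (SE 0.21, 95% interval 1.07 to 2.02, limma adjusted p = 0.000921).

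GAL1 and GAL10 of the galactose branch had the largest changes of the 6. GAL1, which encodes the galactokinase and sensor, was at 164 and 147 FPKM in WT, 647 and 786 in isolate 1 and 1337 and 1430 in isolate 2. The 3 strains were well separated, and isolate 2 stood highest. The log2 change in sir2Δ was 2.67 (SE 0.33, 95% interval 1.92 to 3.42, limma adjusted p = 0.000555). GAL10, the epimerase gene, was at 85.0 and 70.9 FPKM in WT, 361 and 499 in isolate 1 and 732 and 883 in isolate 2. All 3 strains were separated here too, and the log2 change was 2.90 (SE 0.31, 95% interval 2.17 to 3.62, limma adjusted p = 0.000299). For isolate 2 minus isolate 1, GAL1 and GAL10 stood at places 2 and 5 from the top of all tested genes. Their errors and intervals against WT rest mostly on the spread shared over genes and reflect that distance only in part. In the order of changes over 5021 tested genes, GAL10 stood at place 102 from the top, GAL1 at 116, LAC4 at 197 and LAC12 at 252.

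GAL7, the transferase gene beside GAL10, did not rise with GAL1 and GAL10 in isolate 1, and it rose less than they did in isolate 2. The log2 change in isolate 2 against WT was 0.63 for GAL7, 3.14 for GAL1 and 3.36 for GAL10. GAL7 was at 196 and 182 FPKM in WT, 172 and 194 in isolate 1 and 279 and 309 in isolate 2. Isolate 1 overlapped WT, while both libraries of isolate 2 lay above every other library. Over both isolates the log2 change was 0.29 (SE 0.25, 95% interval −0.28 to 0.87, limma adjusted p = 0.380), at place 1431 among the tested genes. The 2 isolates stood apart here, and the interval spans both a small fall and a rise of up to 0.87 on the log2 scale.

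LAC9 was the least abundant of the 6, with 32.9 and 34.0 FPKM in WT, 44.4 and 54.3 in isolate 1 and 49.8 and 57.8 in isolate 2. Every deletion library lay above WT, and the isolates overlapped each other. The log2 change was 0.60 (SE 0.16, 95% interval 0.23 to 0.97, limma adjusted p = 0.0189), and the adjusted p was 0.0673 when no filter on low values was applied. Of the 6 genes, 5 had all 4 deletion libraries above both WT libraries, an arrangement shown by 34.0% of all tested genes, where 20.2% were called higher. GAL7 had 2 of its 4 deletion libraries above WT.

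**Figure D1:**
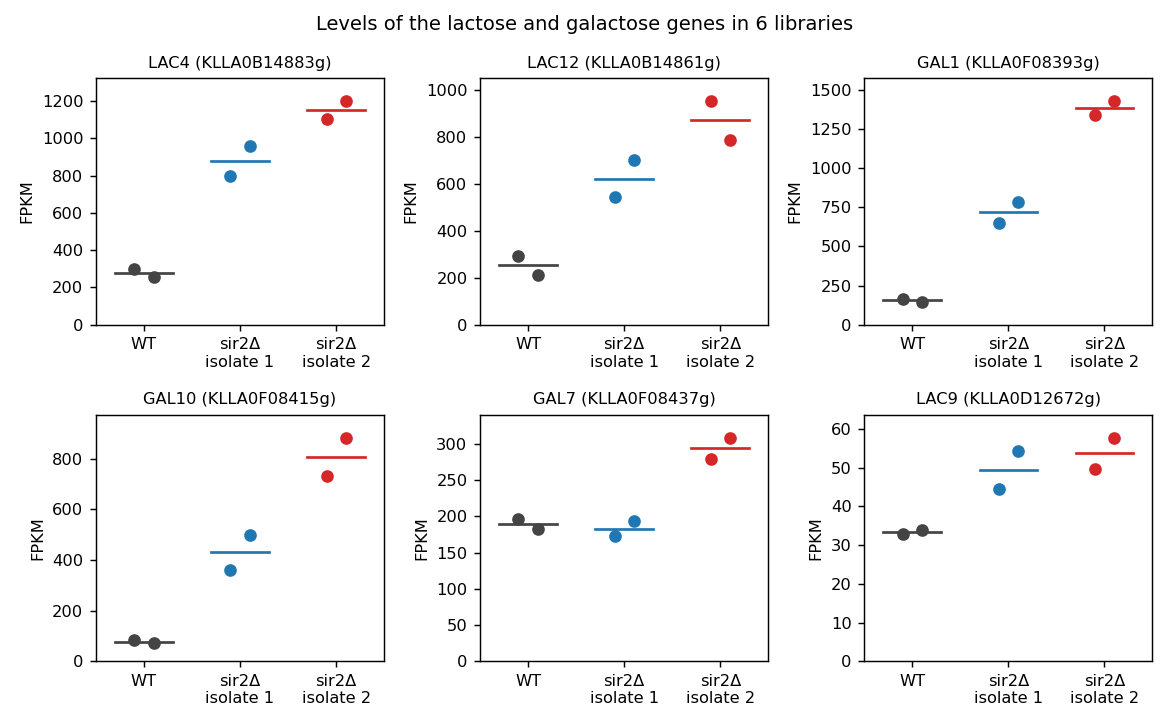
FPKM of each of the 6 genes in every library, with 1 panel per gene and a linear axis from 0. Points are the technical libraries, and bars are strain means. WT lies lowest in every panel except that of GAL7, where isolate 1 and WT overlap at 172 to 196 FPKM.

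When the isolates were set against WT separately, each isolate differed from WT in the same direction for 5 genes. For these contrasts limma was given all 6 libraries singly, grouped by strain, so their p-values measure technical spread only. The isolates also share the WT libraries, so agreement between them is not independent. In isolate 1, 5 of 6 genes were higher and none lower, against 30.8% of tested genes called higher. In isolate 2 all 6 were higher, against 32.8%. The log2 change of LAC4 was 1.66 in isolate 1 and 2.06 in isolate 2, and that of LAC12 was 1.30 and 1.79. For GAL1 the values were 2.19 and 3.14, and for GAL10 they were 2.44 and 3.36. LAC9 changed by 0.54 and 0.67. GAL7 changed by −0.05 in isolate 1 (95% interval −0.25 to 0.16, limma adjusted p = 0.685) and by 0.63 in isolate 2 (95% interval 0.43 to 0.84, limma adjusted p = 3.3e-05).

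**Figure D2:**
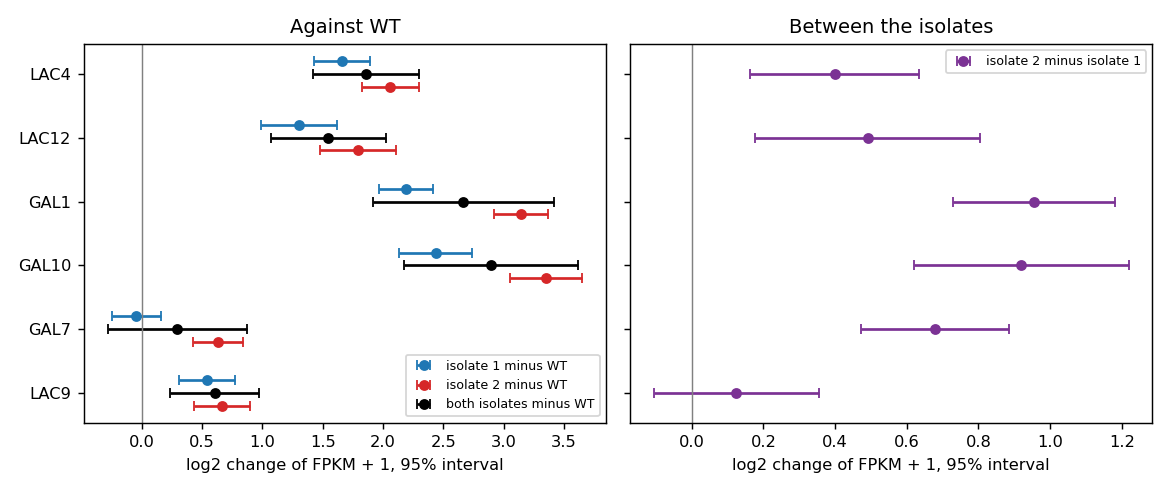
Log2 change of FPKM + 1 for the 6 genes with 95% intervals from limma, against WT on the left and between the isolates on the right. Intervals for single isolates rest on technical libraries, and the black ones on 3 strain means. GAL7 is the gene whose interval for isolate 1 spans 0, and LAC9 the gene whose interval between the isolates spans 0.

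The isolates carry the same genotype label, and 5 of the 6 genes were higher in isolate 2 than in isolate 1, with none lower. Each isolate is 1 strain with 2 technical libraries, so the errors and p-values of this comparison also measure technical spread only. Over all tested genes 7.89% were called higher in isolate 2. GAL1 was higher by 0.95 on the log2 scale (SE 0.11, limma adjusted p = 0.000131), a 1.94-fold difference, and stood at place 2 of 5021 tested genes. GAL10 was higher by 0.92 (SE 0.14, limma adjusted p = 0.000691) and stood at place 5. GAL7 was higher by 0.68 (SE 0.10, limma adjusted p = 0.000387), at place 27. LAC12 and LAC4 were higher by 0.49 (SE 0.15, limma adjusted p = 0.0312, place 90) and 0.40 (SE 0.11, limma adjusted p = 0.0211, place 176). LAC9 differed by 0.12 (95% interval −0.11 to 0.35, limma adjusted p = 0.459). The 2 lactose calls did not hold without a filter on low values (adjusted p = 0.0709 for LAC4 and 0.140 for LAC12), after quantile normalization (0.107 and 0.145), or when any 1 of 3 libraries was left out. With libraries left out, the adjusted p was 0.192 for LAC4 and 0.352 for LAC12 without isolate 1 replicate 1. It was 0.0766 and 0.287 without isolate 2 replicate 1. Leaving out isolate 2 replicate 2 gave 0.186 and 0.123, and also left GAL10 at an adjusted p of 0.0696, while GAL1 and GAL7 passed in all alternatives of scaling, filter, pseudocount, fit and left-out library that were run.

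Within a strain, the technical libraries differed mostly in 1 direction for these genes. In WT, 5 of the 6 genes were lower in replicate 2 than in replicate 1, with ratios from 0.732 for LAC12 to 1.03 for LAC9. In isolate 1 all 6 were higher in replicate 2, from 1.13 times for GAL7 to 1.38 times for GAL10. In isolate 2, 5 of 6 were higher in replicate 2, from 0.827 times for LAC12 to 1.21 times for GAL10. The median ratio over all tested genes was 1.01, 1.01 and 1.00 in the 3 strains. The part of this shared shift in the difference between isolates was not tested.

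**Figure D3:**
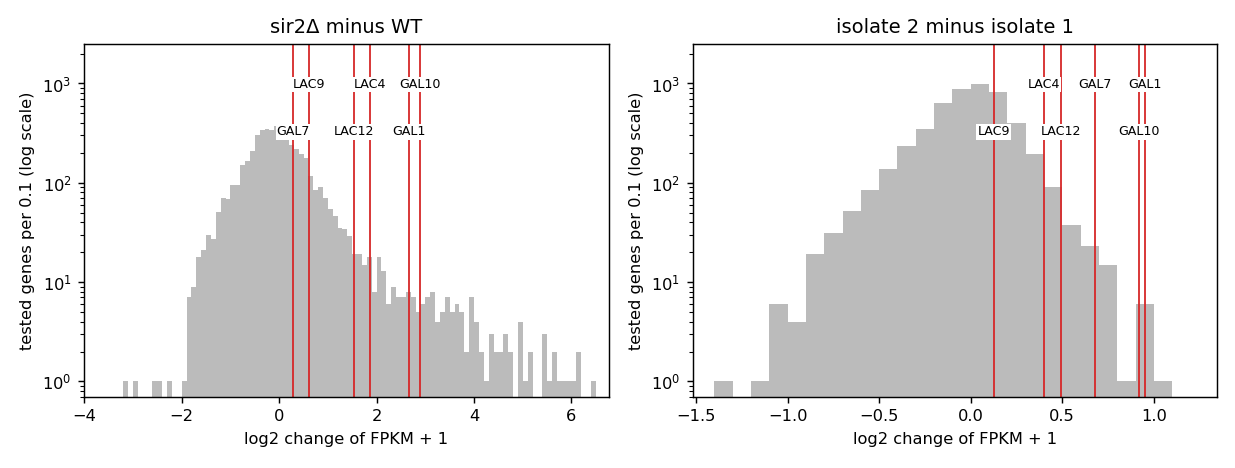
Distribution of log2 changes over the 5021 tested genes, with the 6 genes marked by lines, for sir2Δ minus WT on the left (drawn from −4 upwards) and isolate 2 minus isolate 1 on the right. Counts are on a log axis. GAL1 and GAL10 lie at the upper end of the right panel, at 0.95 and 0.92.

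Absolute levels changed order between the strains. FPKM is per length, so levels can be set side by side. In WT the order was LAC4 (277 ± 30.6 FPKM, SD, n = 2 technical libraries), LAC12 (253 ± 55.2), GAL7 (189 ± 9.88), GAL1 (156 ± 11.9), GAL10 (78.0 ± 9.98) and LAC9 (33.5 ± 0.80). Only LAC4 and LAC12 overlapped among neighbours in that order. In isolate 1 the order was LAC4 (878 ± 114), GAL1 (717 ± 98.4), LAC12 (622 ± 112), GAL10 (430 ± 97.6), GAL7 (183 ± 15.3) and LAC9 (49.4 ± 6.95), where GAL1 and LAC12 overlapped. In isolate 2 GAL1 was highest (1384 ± 65.2), then LAC4 (1154 ± 68.0), LAC12 (871 ± 117), GAL10 (807 ± 107), GAL7 (294 ± 21.1) and LAC9 (53.8 ± 5.67), and LAC12 and GAL10 overlapped. Among all 5076 genes GAL1 ranked 1189 by level in WT, 322 in isolate 1 and 215 in isolate 2. LAC4 ranked 708 in WT, 283 in isolate 1 and 238 in isolate 2.

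Ratios within a library do not depend on the scaling between libraries. The FPKM ratio of GAL1 to GAL10 was 1.93 and 2.08 in WT, 1.79 and 1.58 in isolate 1 and 1.83 and 1.62 in isolate 2, so it was lower in every deletion library than in either WT library. The ratio of GAL7 to GAL10 was 2.31 and 2.57 in WT, 0.478 and 0.389 in isolate 1 and 0.381 and 0.350 in isolate 2. GAL7 was therefore the more abundant of the pair in WT and the less abundant in every deletion library. The ratio of LAC12 to LAC4 was 0.978 and 0.838 in WT, 0.680 and 0.731 in isolate 1 and 0.862 and 0.655 in isolate 2, and its ranges in WT and isolate 2 overlapped. The ratio of GAL1 to LAC4 was 0.551 and 0.578 in WT, 0.811 and 0.820 in isolate 1 and 1.21 and 1.19 in isolate 2, with no overlap between strains. With 2 technical libraries a strain, no test was made of these ratios.

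**Figure D4:**
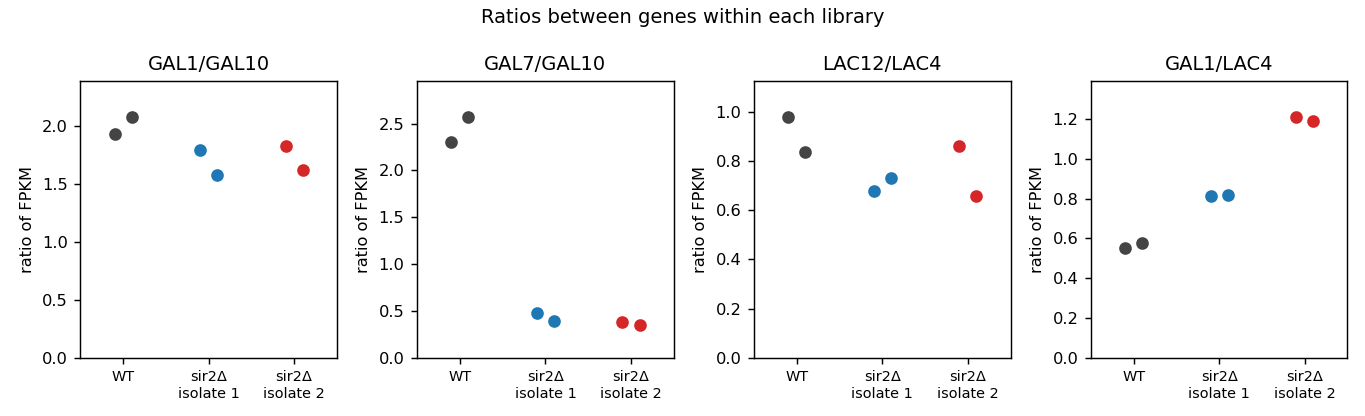
Ratios of FPKM between genes within each library, on linear axes from 0, with 1 point per library. GAL7 to GAL10 goes from 2.31 and 2.57 in WT to between 0.350 and 0.478 in the deletion libraries, while GAL1 to GAL10 stays between 1.58 and 2.08.

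Other genes of galactose use were taken from a list of 13 names, of which 2 matched a gene by symbol outside the 6. In sir2Δ against WT neither passed. GAL80, the gene of the inhibitor of Lac9 (KLLA0A08162g), was at 41.1 and 40.0 FPKM in WT, 38.4 and 38.9 in isolate 1 and 76.8 and 71.0 in isolate 2. Isolate 1 lay just below WT, and isolate 2 stood above every other library, as it did for GAL7. Its log2 difference between isolate 2 and isolate 1 was 0.92 (SE 0.09, limma adjusted p = 0.000121), place 6 of the tested genes, and over both isolates against WT it was 0.39 (SE 0.32, limma adjusted p = 0.359). GAL11 (KLLA0F07579g), which encodes a Mediator subunit, was at 65.7 and 62.9 FPKM in WT, 59.9 and 64.1 in isolate 1 and 79.9 and 74.0 in isolate 2. It was higher in isolate 2 than in isolate 1 by 0.31 (limma adjusted p = 0.0268), a call that was lost when any single library other than isolate 1 replicate 2 was left out. The adjusted p was then 0.0547 without either WT library, 0.129 without isolate 1 replicate 1, and 0.105 and 0.0688 without replicates 1 and 2 of isolate 2. It was 0.0609 without a filter on low values and 0.0558 after quantile normalization.

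In the list of glucose repression and sugar signalling, 12 genes outside the 6 were tested out of 33 names. In sir2Δ 3 were higher, 1 lower and 8 did not pass (median log2 change 0.11, against −0.06 over all tested genes). Of all tested genes 20.2% were higher and 19.9% lower, so these counts stand near or below the background. MIG1, a glucose repressor that acts on GAL genes in Saccharomyces cerevisiae, rose by 1.27 (SE 0.20, limma adjusted p = 0.00212), from 41.6 and 33.6 FPKM in WT to 77.1 and 78.7 in isolate 1 and 94.9 and 121 in isolate 2. RGT1, a repressor of hexose transporter genes in that species, rose by 1.41 (0.77 after quantile normalization) and SNF4, a subunit of the Snf1 kinase, by 0.55, which did not pass without a filter (adjusted p = 0.0544). CYC8, of the Tup1-Cyc8 corepressor, fell by 0.70. The closest of the others were TUP1 (0.40, limma adjusted p = 0.0650), SNF1, the kinase gene (−0.38, limma adjusted p = 0.0865), and GCR2 (−0.33, limma adjusted p = 0.122). TUP1 passed without isolate 1 replicate 1 (adjusted p = 0.0305).

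The list of other glucose-repressed genes and their activators gave 17 tested genes for 26 names, matched by symbol. Every strain grew in glucose, so whether glucose represses these genes in K. lactis was not tested. In sir2Δ 11 were higher, 0 lower and 6 did not pass, with a median log2 change of 1.05. Over all tested genes 20.2% were higher and 19.9% lower, and the median was −0.06. The rises were those of ALD4, acetaldehyde dehydrogenase (3.41), the activator gene ADR1 (2.64), ACS1, acetyl-CoA synthetase (2.41), MLS1, malate synthase (2.21), GUT2 of glycerol use (2.01) and GDH2 (1.77). FBP1, fructose bisphosphatase (1.61), GUT1, glycerol kinase (1.28), ICL1, isocitrate lyase (1.05), PCK1 (1.03) and HAP4, a respiratory activator gene (0.57), completed them. ADR1, MLS1 and ICL1 were low in WT, at means of 3.62, 6.64 and 4.83 FPKM, so the pseudocount moves their size. With pseudocounts of 5 and 0.1 the changes were 1.93 and 2.91 for ADR1, 1.76 and 2.35 for MLS1, and 0.71 and 1.18 for ICL1. SUC2, invertase (0.42, limma adjusted p = 0.131), and the activator genes SIP4 (0.56, limma adjusted p = 0.160) and CAT8 (0.34, limma adjusted p = 0.175) did not pass. HAP4 did not pass when WT replicate 2 (adjusted p = 0.0506) or isolate 1 replicate 2 (0.0568) was left out, nor without a filter on low values (0.0944). After quantile normalization ICL1 changed by 0.51 and did not pass (adjusted p = 0.140). SIP4 passed without a filter (adjusted p = 0.0290) and without the intensity trend (0.0395). Whether the regulon differed from this list was not tested.

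The 6 genes lie at 3 places, described by gene order alone, with no coordinates, since no source used here names the authors' build. LAC12 and LAC4 are the fifth and the fourth annotated gene from the right end of chromosome B. Of their 8 neighbours within 5 positions, 7 were tested and all 7 were higher in sir2Δ (median log2 change 1.05), where 20.2% of all tested genes were. The count was 5 without a filter on low values, where KLLA0B14773g (adjusted p = 0.101) and KLLA0B14817g (0.0625) did not pass, and 6 without the intensity trend, where KLLA0B14773g did not (0.0610). KLLA0B14839g, next to LAC12, was at 334 and 257 FPKM in WT, 810 and 988 in isolate 1 and 1679 and 1687 in isolate 2. It rose by 2.06 (SE 0.31, limma adjusted p = 0.00172) and stood at place 7 for the difference between isolates (0.91, SE 0.12, limma adjusted p = 0.000331). Its FPKM ratio to LAC12 was 1.14 and 1.21 in WT, 1.49 and 1.41 in isolate 1 and 1.76 and 2.14 in isolate 2.

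On the other side of LAC4, towards the chromosome end, the neighbours were near 0 in WT. KLLA0B14916g was at 0.572 and 0.782 FPKM in WT and between 17.8 and 22.4 in the deletion libraries, a log2 change of 3.64. KLLA0B14927g went from 0.839 and 0.504 FPKM to between 28.0 and 36.2, a change of 4.33. At such low WT levels the pseudocount moves the size: with pseudocounts of 5 and 0.1 the changes were 2.13 and 4.70 for KLLA0B14916g and 2.72 and 5.43 for KLLA0B14927g. Both differed from the lactose genes in starting level, since LAC4 was at 277 FPKM on average in WT. Farther from the end, KLLA0B14751g (1.05, and 0.63 after quantile normalization), KLLA0B14795g (1.01), KLLA0B14817g (0.59) and KLLA0B14773g (0.47) rose less, and the last did not pass when isolate 1 replicate 2 (adjusted p = 0.0856) or isolate 2 replicate 1 (0.0820) was left out. The terminal KLLA0B14949g, at 0 to 0.282 FPKM in the 6 libraries, was not tested.

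GAL1, GAL10 and GAL7 lie side by side in the interior of chromosome F. Among their 10 neighbours 1 was higher and 5 were lower (median log2 change −0.42), where 19.9% of all tested genes were lower. The riser was KLLA0F08371g, next to GAL1, at 0.517 and 0.711 FPKM in WT, 22.2 and 20.9 in isolate 1 and 25.1 and 24.7 in isolate 2. It changed by 3.91 (SE 0.25, limma adjusted p = 1.5e-05), or by 2.33 and 5.04 with pseudocounts of 5 and 0.1. Its difference between isolates was 0.20 (95% interval −0.05 to 0.45), against 0.95 for GAL1. On the GAL7 side, NAT1 (−0.45), BIL1 (−0.42), RRG7 (−0.56) and MCH5 (−0.62) fell, as did KLLA0F08283g (−1.20) on the other side. Without isolate 1 replicate 2 the adjusted p was 0.0754 for NAT1, 0.273 for BIL1 and 0.0732 for RRG7. NAT1 also did not pass with isolate 2 replicate 1 left out (0.0536), nor BIL1 with WT replicate 1 (0.0923), isolate 2 replicate 1 (0.0993) or isolate 2 replicate 2 (0.0512) left out. Without a filter on low values, KLLA0F08283g was the 1 of these 5 that passed. The sequencing kit does not keep the strand, so reads of a gene and of an overlapping antisense transcript cannot be told apart. LAC9 stands alone on chromosome D, with 2 of its 10 neighbours higher, KLLA0D12606g (1.09) and KLLA0D12650g (1.12), and 1 lower, MRPL24 (−0.65), where 20.2% of all tested genes were higher and 19.9% lower. KLLA0D12650g did not pass after quantile normalization (0.60, adjusted p = 0.0683).

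**Figure D5:**
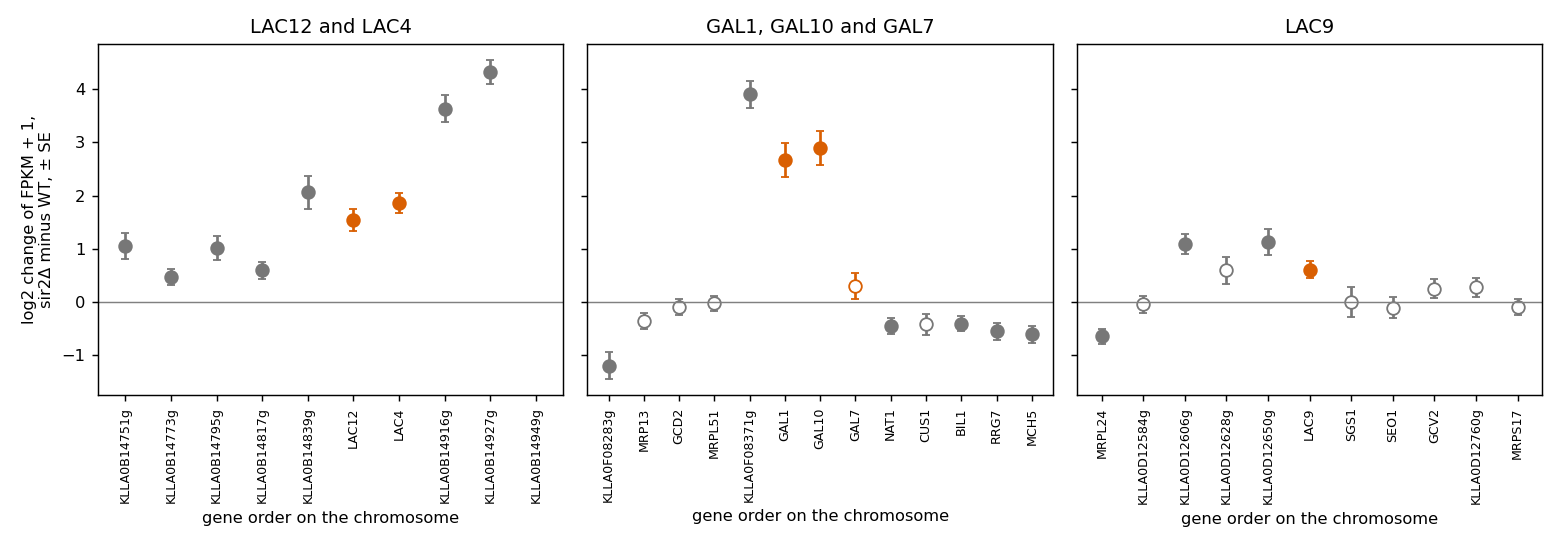
Log2 change of FPKM + 1 in sir2Δ minus WT (± SE, limma) for the 6 genes (orange) and up to 5 annotated genes on either side (grey), in chromosome order. Filled points passed an adjusted p of 0.05, and KLLA0B14949g was not tested. All tested genes around LAC12 and LAC4 lie above 0, whereas on the GAL7 side of the GAL cluster values are below 0.

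Likeness of pattern was measured as the Euclidean distance between the 6 libraries' deviations from the WT mean on log2(FPKM + 1), over the 5021 tested genes. The deviations were not scaled, so the distance also depends on the size of change. Distances around a weakly changed gene such as LAC9 cannot be set beside those around GAL10. GAL10 was the gene most like GAL1 (distance 0.50), ahead of KLLA0B10373g (0.61) and LDS1 (0.64). LDS1 was at 0.843 and 0.518 FPKM in WT, where adding 1 understates its change. The log2 difference between isolates was 0.41 for LDS1 and 0.43 for KLLA0B10373g, against 0.95 for GAL1. The nearest to GAL10 were KLLA0D09240g (0.43), KLLA0E00221g (0.43) and KLLA0F20900g (0.46), with GAL1 at place 4. LAC4 was nearest to KLLA0A01760g (0.21), KLLA0E17447g (0.24) and KLLA0F19382g (0.24), and LAC12 came at place 79 (0.72). LAC12 was nearest to GLC3 (0.38), ATG32 (0.44) and ATG19 (0.44), and LAC9 to SOG2 (0.04), POT1 (0.07) and KLLA0D14201g (0.10). Of the 5 genes compared in this way, GAL1 was the one whose closest match was another gene of the regulon.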

How the data were processed

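The authors deposited 1 FPKM value per gene and library, made from 50 bp single-end reads of a kit that does not mark strand, per the labels' protocols. TopHat2 2.0.10 and Cuffnorm 2.2.1 are named in the submitters' processing notes. No source used here names the build, the annotation or the scaling option, and read depth is unknown. All 5076 identifiers matched the RefSeq table (ASM251v1), used for symbols and gene order only. FPKM values were put on a log2 scale after adding 1, so changes of low genes are understated. A gene entered the fit if its 3 strain means averaged 1 FPKM or more, which kept 5021 genes for limma 3.58.1 (R 4.3.3, intensity trend), leaving out 55. The fit to strain means had 1 residual degree of freedom, from the isolates, and WT was assumed to vary likewise. limma combined it with a spread estimated over all tested genes, weighted as 7.03 degrees of freedom. Errors and p-values for sir2Δ against WT therefore rest mostly on that shared spread, and less on how far the isolates stood apart for a gene. The fit to 6 libraries had 3 residual degrees of freedom and 11.44 from all tested genes. The procedure was also run on simulated data, whose outcome is not given here. WT was there given the same spread as the isolates, so that run cannot show whether WT varies likewise. Promoter motifs were not analysed here.

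Beside the 6 genes, those named are called genes within 5 positions, called genes of 3 lists with up to 3 others of smallest p, and the 3 nearest in pattern. The genes and lists were chosen with earlier results of these data known, and list members were matched by symbol. Alternatives were other pseudocounts, filters, scalings and variance models, single libraries left out, and a replicate block. For neighbours, lists and genes outside the 6 they were added after seeing the data.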

Additional observations from a re-analysis of the deposited data

Results flagged for a closer look

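Levels of 5 of the 6 genes were higher in isolate 2 than in isolate 1, by limma with technical libraries as replicates. That test sets the difference between 2 strains against technical spread, and whether the response to SIR2 loss varies between cultures was not tested. The log2 difference was 0.95 for GAL1 (95% interval 0.73 to 1.18), 0.92 for GAL10 (0.62 to 1.22), 0.68 for GAL7 (0.47 to 0.88), 0.49 for LAC12 (0.18 to 0.80) and 0.40 for LAC4 (0.16 to 0.63). Both libraries of isolate 2 lay above both of isolate 1 for these 5 genes, an arrangement shown by 27.5% of all tested genes, of which 7.89% were called higher. The LAC4 and LAC12 calls did not hold without a filter on low values, after quantile normalization or with any 1 of 3 libraries left out. Each isolate is 1 strain, so a difference between cultures and one between isolates cannot be told apart.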

How the results depend on the processing

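In sir2Δ against WT, LAC4, LAC12, GAL1 and GAL10 passed and GAL7 did not in all settings tried, and LAC9 missed the threshold only without a filter on low values. The number of all genes called went from 2013 to 3118 with the 6 libraries entered singly and the replicate number as a block, and to 3217 without the block. In these same 2 fits the glucose repression list had 5 of 12 genes higher and 3 lower, where 28.7% and 33.4% of all tested genes were called higher and lower with the block and 29.4% and 34.7% without it. Same-numbered libraries had deviations correlated at 0.01 and 0.05 between WT and the isolates, and at 0.21 between the isolates. Whether the replicate numbers pair the libraries was not tested. The replicate block left 5 of the 6 genes called.

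Between the isolates, 3 of the 6 genes were called without a filter and 3 after quantile normalization; LAC4 and LAC12 were lost in both. With single libraries left out, 2 to 5 of the 6 were called, and 232 to 918 of all genes against 937. Over the same omissions the log2 change of GAL7 in isolate 1 against WT ran from −0.132 to 0.0384, above 0 without WT replicate 1 or isolate 1 replicate 1. That of LAC9 between isolates ran from −0.0168 to 0.266, below 0 without isolate 1 replicate 1.

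Among GAL cluster neighbours 5 were lower. The count was 1 without a filter, 3 after median centring, 3 without the intensity trend, 6 after quantile normalization, 7 with the 6 libraries entered singly, with or without the block, and 2 to 5 with a library left out. Around LAC4 and LAC12, 5 neighbours were higher without a filter, 6 without the intensity trend and 6 or 7 with a library left out, against 7. LAC9 had 1 neighbour higher with a filter at 10 FPKM, where fewer genes were tested, and 1 after quantile normalization, against 2; it had 3 without a filter, without the intensity trend and with the 6 libraries entered singly. Quantile normalization called as higher 1 galactose gene, GAL80 (limma adjusted p = 0.0482), and TUP1 (0.0314). GAL80 lay below WT in isolate 1 (38.4 and 38.9 FPKM against 41.1 and 40.0), so its call rests on isolate 2. The same scaling ended the ICL1 call (0.51, limma adjusted p = 0.140) and turned SIP4 to −0.32. SIP4 passed at 0.0140 with the block and 0.00667 without it in the 6-library fits. Except for the filter at 10 FPKM, the cause was not tested. Read depth is unknown, so no counting interval is given for low values.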
